A study of Mus musculus with 2 samples.

Results

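The expression of imprinted genes was compared between ES cells and the E10.5 forebrain. The 40 genes were chosen by symbol from genes known to be imprinted in the mouse, and 39 of them were found among the 29311 genes listed for both samples. *Kcnq1ot1* is not listed and has no entry in the gene annotation of the build used, so no value is given for it. By textbook knowledge 21 of the 39 listed genes are expressed from the paternal and 18 from the maternal allele. For some of them, such as *Grb10* and *Ube3a* described below, the expressed allele depends on the tissue. The deposited tables hold a single value per gene, so alleles were not measured.

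The study deposited RNA-seq of 1 sample of E14 ES cells, a wild-type (WT) mouse embryonic stem cell line that was kept on gelatin in serum and LIF in the absence of feeder cells, and of 1 sample of WT forebrain cells of B6CBAF1/J embryos at E10.5, called forebrain below, for which the methods describe RNA from single embryos. There are no replicates. Values are called RPKM as deposited, reads per kb of exon scaled per sample by the authors. The scale is not that of usual RPKM. A single read on 1 kb of exon was inferred to have a value of 1.22 in ES cells and 0.819 in forebrain. At the depths inferred below, usual RPKM would be far lower. All levels and limits in RPKM are on the deposited scale and are not comparable with RPKM of other studies. Strain and cell type differ together between the samples and cannot be told apart. In bulk RNA, fewer cells of a type and less RNA per cell cannot be told apart either.

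Imprinted genes carry a DNA methylation mark that is set in the egg or the sperm and is kept on 1 parental allele after fertilization, and the gene or its neighbours are then transcribed from a single allele. Most of them lie in clusters in which a control region acts on several genes, often together with a long non-coding RNA. Many regulate growth of the embryo and the placenta, and several are known for their expression in the brain.

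Depth was inferred from the values of low genes, most of which are whole multiples of the value of 1 read. This gave totals of 42784230 reads for ES cells and 59781957 for forebrain. The 39 imprinted genes took 72109 reads in ES cells (0.169%) and 456699 in forebrain (0.764%). A count of 3 reads, the limit that a count of 0 allows, corresponds to an RPKM between 0.202 and 4.84 in ES cells and between 0.136 and 3.25 in forebrain, depending on the length of the gene. Intervals given below are 95% intervals of these reads (exact Poisson for a level and exact Clopper-Pearson for a ratio), and they cover counting error only. Although the libraries were stranded, 5 pairs of genes that share over 90% of their exons on opposite strands had nearly the same reads, with ratios between 1.00 and 1.38. Reads on either strand were therefore counted for a gene, and the 13 imprinted genes whose exons overlap another gene can hold reads of that gene.

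The labelled cell types were checked against marker genes. All 8 ES cell markers were higher in ES cells, with a summed RPKM of 45846 against 2762 in forebrain. *Sox2* made up most of the sum in forebrain, with 7182 in ES cells and 2602 in forebrain. All 8 forebrain markers were higher in forebrain (281 against 6886, with *Lhx2* listed at 0 in ES cells). The forebrain sample also held RNA of other cell types. Primitive erythroid markers (6 of 6 higher in forebrain) summed to 373 in ES cells and 799065 in forebrain, mesenchyme markers (6 of 6) to 63.0 and 18114, and endothelial markers (5 of 6) to 604 and 1971. None of these was at 0 in either sample. Their part in the levels of the imprinted genes was not tested.

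As a group, the imprinted genes stood higher in forebrain than in ES cells. The median RPKM of the 39 genes was 146 in ES cells and 511 in forebrain, against 48.9 and 62.4 over all listed genes. Differences were taken on log2(RPKM + 1), which makes those of low genes smaller. On this scale 23 of the 39 genes (59.0%) were at least 2-fold higher in forebrain, compared to 25.8% of all listed genes. Only 5 (12.8%) were at least 2-fold higher in ES cells, namely *Phlda2*, *Slc22a18*, *Ascl2*, *Impact* and *Ddc*, compared to 23.3% of all genes. The remaining 11 differed by less. The median difference, forebrain minus ES cells, was 1.62 for the imprinted genes and 0.013 for all genes, and it was 1.62 as well with *Slc22a18*, the gene listed at 0, set to its bound. These are descriptions of 2 libraries, and no test between the cell types is possible.

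**Figure D1:**
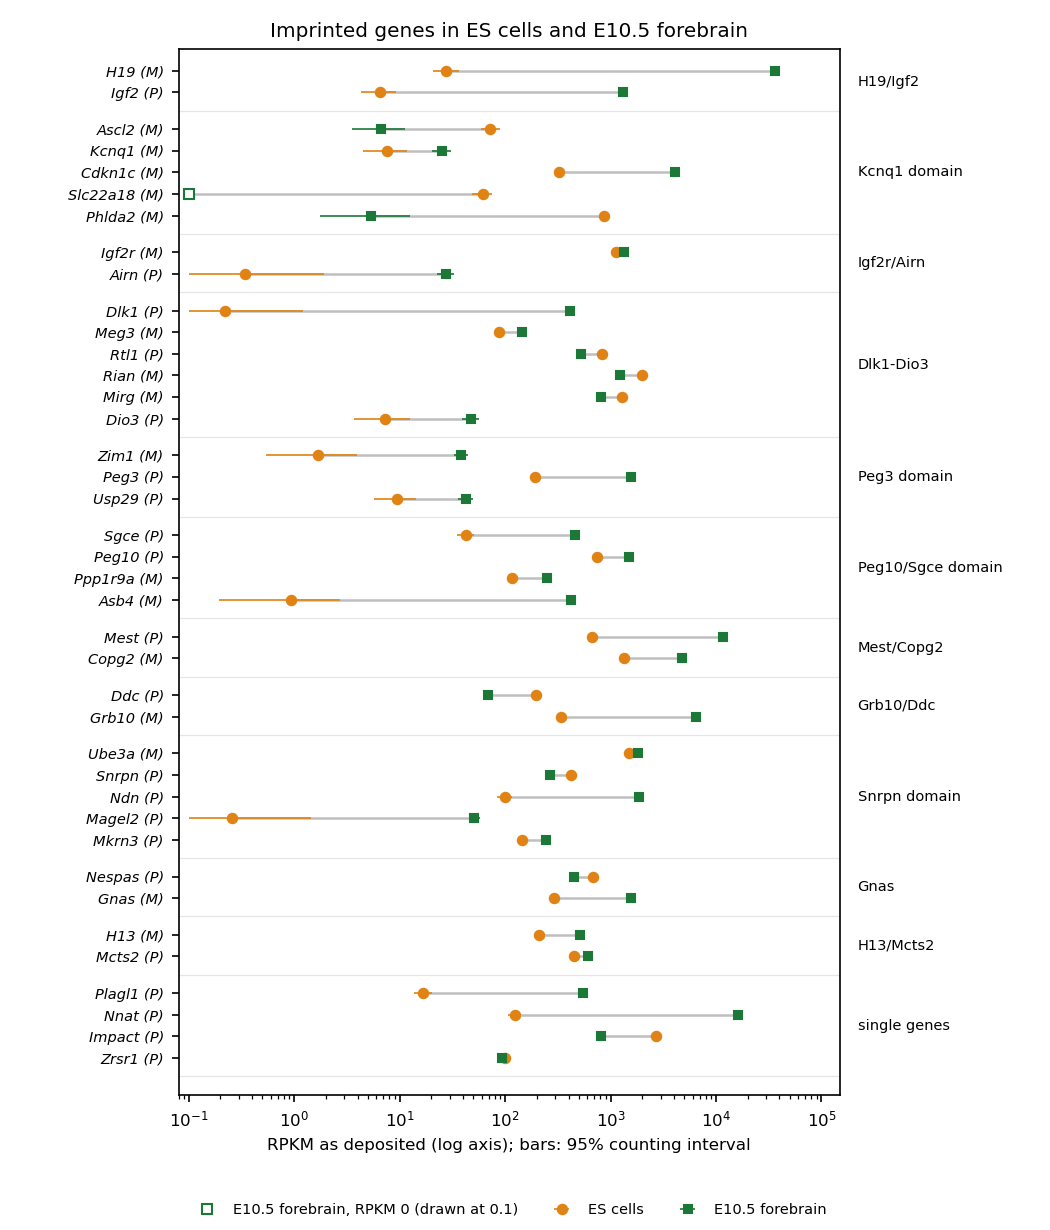
RPKM of the 39 listed imprinted genes in ES cells (orange circles) and forebrain (green squares) on a log axis, grouped by imprinted domain, with bars for the 95% counting interval cut at 0.1 and M or P for the allele known to be expressed. *H19* reaches the highest level in forebrain (36519.9) and *Impact* in ES cells (2709), while *Slc22a18* is listed at 0 in forebrain and is drawn at 0.1.

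Large differences were common towards forebrain. At least 8-fold higher levels in forebrain were seen for 15 imprinted genes (38.5%, compared to 8.64% of all listed genes), and in ES cells for 3 (7.69%), a share near the 6.24% of all listed genes. In ES cells the highest gene, *Impact*, made up 15.8% of the summed RPKM of the group (17111), and the highest 3 genes 36.3%. In forebrain the sum was 98728, of which *H19* alone made up 37.0% and *H19*, *Nnat* and *Mest* together 65.1%. Without these 3 genes the sums were 16289 in ES cells and 34421 in forebrain. An RPKM of at least 1000 was reached by 6 imprinted genes in ES cells and by 14 in forebrain, and 3 and 14 of them, respectively, were within the top 10% of all listed genes. The limit of 3 reads was reached by 36 of the genes in ES cells and by 38 in forebrain. An RPKM above 0 was listed for 39 and 38 of them, and for 26646 and 27009 of all listed genes. The shares of all listed genes that reached an RPKM of 1000 or 3 reads were not taken. The counts at these limits alone therefore do not set the imprinted genes apart from other genes.

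The counts were also made for each expressed allele. Of the 21 paternally expressed genes, 13 (61.9%) were at least 2-fold higher in forebrain and 2 (9.52%) in ES cells, with a median difference of 2.55 on the log2 scale. Of the 18 maternally expressed genes, 10 (55.6%) and 3 (16.7%) were, with a median of 1.19. For comparison, these shares were 25.8% and 23.3% of all listed genes and 27.9% and 18.9% of the protein-coding ones. The maternally expressed genes had the widest range, from -7.08 for *Phlda2* to 10.31 for *H19*, whereas the paternally expressed genes lay between -1.74 for *Impact* and 8.40 for *Dlk1*. The difference between both sets was not tested. Some values can also hold reads of transcripts from the other allele, as described below for *Rtl1*, *Gnas*, *Mest* and *Copg2*. Genes that were low in ES cells contributed most of the large differences. Of the 16 imprinted genes under an RPKM of 100 in ES cells, 13 were at least 2-fold higher in forebrain (37.2% of all genes in that range), and of the 23 at or above 100, 10 were (10.2% of all genes in that range).

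**Figure D2:**
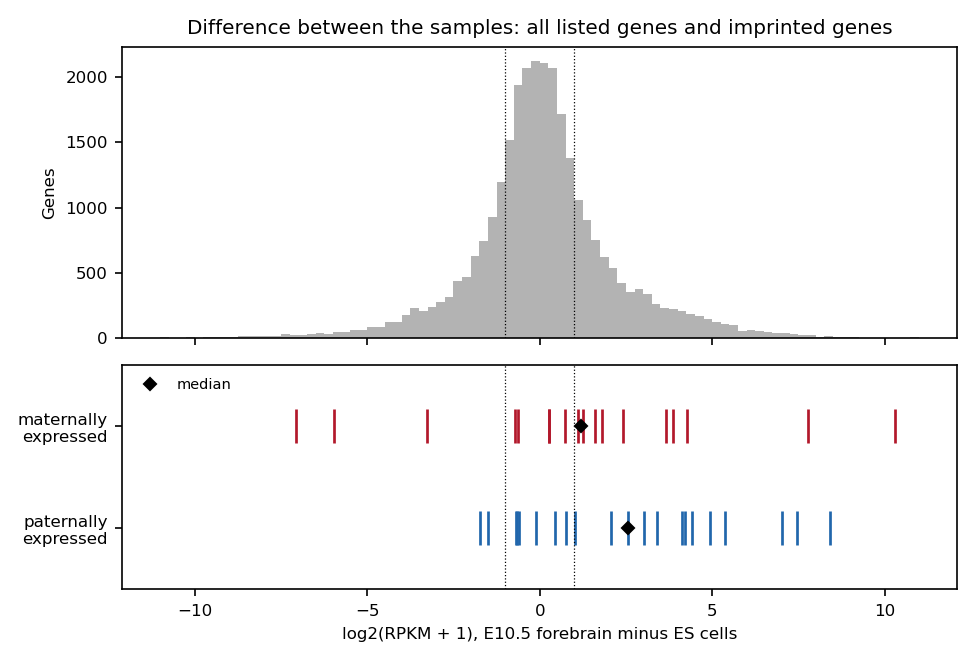
Difference between the samples on log2(RPKM + 1), forebrain minus ES cells, as a histogram of all 29311 listed genes (top) and as 1 line per imprinted gene by expressed allele (bottom), with dotted lines at 2-fold. The diamonds mark medians of 1.19 for maternally and 2.55 for paternally expressed genes, whereas the histogram is centred near 0 with a median of 0.013.

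The *H19*/*Igf2* domain (chr7:149761434-149852721, NCBIM37) had the largest difference in summed level, from 34.2 over its 2 imprinted genes in ES cells to 37835 in forebrain. *H19* (ENSMUSG00000000031) is a maternally expressed non-coding RNA of 4 exons (chr7:149761434-149764048, minus strand), and *Igf2* (ENSMUSG00000048583, chr7:149836673-149852721, minus strand) codes for a paternally expressed fetal growth factor. *H19* had an RPKM of 27.8 in ES cells (54 reads, interval 20.9 to 36.3) and 36519.9 in forebrain (105756 reads), a 1314-fold difference (interval 1007 to 1749). *Igf2* had 6.45 in ES cells (29 reads) and 1315 in forebrain (8819 reads), 204-fold higher (interval 142 to 305). Both genes thus went from the lower part of the distribution, below the median gene of ES cells, to its top 10% in forebrain. *H19* exceeded *Igf2* in both samples, by 4.31-fold in ES cells and 27.8-fold in forebrain. *Igf2as*, an antisense transcript that shares 98 bases with *Igf2* exons, had 0.92 and 37.9. Both genes are also known for high expression in mesenchyme, and the mesenchyme marker *Col3a1*, a collagen gene, had 7.56 in ES cells and 10812 in forebrain. The part of mesenchyme in this difference was not tested.

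The microRNA gene *Mir675* lies inside an *H19* exon (chr7:149762969-149763052). Its hairpin held 3 reads in ES cells (RPKM 43.6) and 6734 in forebrain (RPKM 65664), and these reads are also part of the *H19* value. In libraries of total RNA, reads on a hairpin show transcription through it and not the level of the mature microRNA. The mature sequences are shown since they are what the transcript can be processed to (RefSeq, GRCm38.p6), with the seed, bases 2 to 8, in capitals.
mmu-miR-675-5p: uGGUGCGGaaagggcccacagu
mmu-miR-675-3p: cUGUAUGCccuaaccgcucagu
The 2 arms have different seeds.

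*Igf2r*, the maternally expressed receptor that carries IGF2 to the lysosome for degradation, behaved differently from its ligand. *Igf2r* (chr17:12875272-12962530, minus strand) had 1130.2 in ES cells and 1353 in forebrain, a ratio of 1.197 (interval 1.17 to 1.23). *Airn*, the paternally expressed non-coding RNA that starts within *Igf2r* and is known to silence the paternal *Igf2r* allele, had 0.34 (1 read) in ES cells and 27.4 (120 reads) in forebrain. This is a ratio of 80.5, with an interval from 14.2 to 3206 because of the single read in ES cells. The RPKM of *Igf2r* was 49.5 times that of *Airn* in forebrain. *Airn* is annotated with 8 exons over a span of which most is intron, and intronic reads are not part of its value.

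In the *Dlk1*-*Dio3* domain (chr12:110691033-111519307), the protein-coding genes at both ends were higher in forebrain, while the transcripts between them went both ways. *Dlk1* (ENSMUSG00000040856), a paternally expressed membrane protein of the Notch ligand type that holds back differentiation, had 0.22 (1 read) in ES cells and 412 (2846 reads) in forebrain, and the ratio of 1873 has an interval from 342 to 75446. *Dio3*, a paternally expressed enzyme that inactivates thyroid hormone, had 7.22 (12 reads) and 47.2 (117 reads), a 6.54-fold difference (interval 3.61 to 13.02). *Dlk1* was the lowest of the 39 imprinted genes in ES cells and ranked 24 in forebrain.

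Of the maternally expressed non-coding RNAs of this domain, *Rian* and *Mirg* had a higher RPKM than *Meg3* in both samples. *Rian*, the host of many snoRNAs, had 2006 in ES cells and 1229.6 in forebrain. *Mirg*, the host of many microRNAs, had 1277 (3320 reads) and 818 (3169 reads). *Rtl1*, a paternally expressed retrotransposon-derived gene needed in the placenta, had 838 and 522. The ratios of forebrain to ES cells were therefore close to each other, at 0.613 for *Rian*, 0.640 for *Mirg* and 0.623 for *Rtl1*. *Meg3*, the first non-coding RNA of the domain, had 86.9 (1287 reads) and 146 (3223 reads), a ratio of 1.68 (interval 1.57 to 1.79). Its annotated exons add up to 18089 bases, since they merge several transcripts, so that its level per kb is not readily compared with those of *Rian* and *Mirg*. Per kb, *Rian* exceeded *Dlk1* by 2.98-fold in forebrain, whereas in ES cells *Dlk1* was hardly detected.

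**Figure D3:**
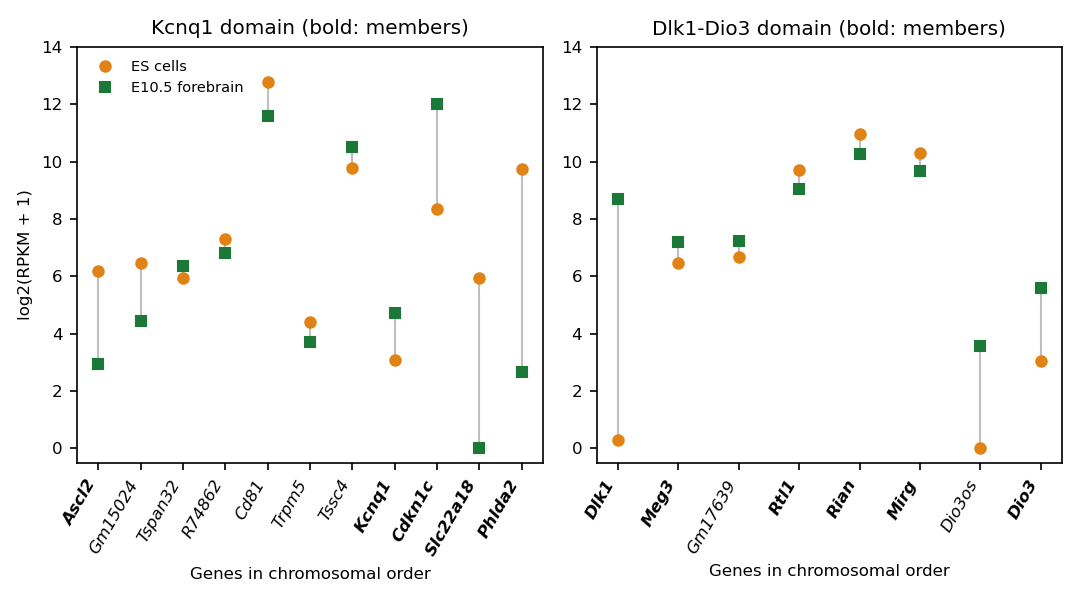
log2(RPKM + 1) in ES cells (orange circles) and forebrain (green squares) for the listed genes of the *Kcnq1* domain (left, 11 genes) and the *Dlk1*-*Dio3* domain without its microRNA and snoRNA genes (right), in chromosomal order and with the imprinted genes described here in bold. *Phlda2*, *Slc22a18* and *Ascl2* sit lower in forebrain while *Cdkn1c* sits higher, and *Dlk1* and *Dio3* sit higher in forebrain while *Rtl1*, *Rian* and *Mirg* sit slightly lower.

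Most small RNA genes of the domain were higher in ES cells, as were *Rian* and *Mirg* and most of all listed microRNA and snoRNA genes. The tables list 87 genes between *Dlk1* and *Dio3*, including 56 microRNA genes and 23 snoRNA genes of 68 to 124 bases. Of the microRNA genes, 45 (80.4%) were higher in ES cells, and 23 (41.1%) were so by at least 2-fold (median difference -0.78 on the log2 scale). At least 2-fold higher in forebrain were 5 (8.93%), among them *Mir1188* and *Mir341*. Over all 869 listed microRNA genes these shares were 60.8%, 43.8% and 28.5% (median -0.56). All 23 snoRNA genes were higher in ES cells, compared to 80.1% of all 747 listed snoRNA genes. At least 2-fold higher were 14 of the 23 (60.9%, median -1.26), close to the 61.3% of all listed snoRNA genes (median -1.28). The highest of all was a *SNORD113* gene in an exon of *Rian*, with 12844 in ES cells (779 reads) and 8056 in forebrain (728 reads), followed by *Mir432* with 3204 and 2410.1. Most of these values rest on few reads, with a median of 37.5 reads per microRNA gene in ES cells and 25 in forebrain, and of 29 and 21 reads per snoRNA gene. Neighbours that share a host transcript are not independent of each other.

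**Figure D4:**
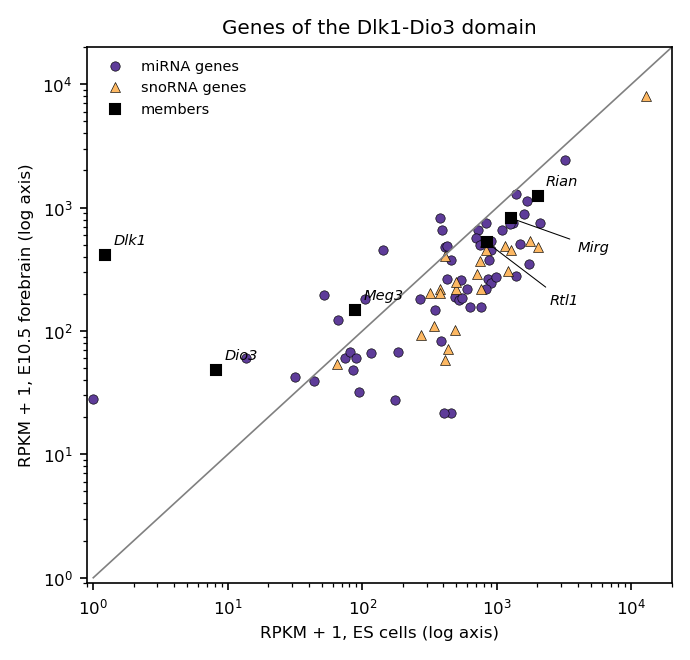
RPKM + 1 in ES cells (x) against forebrain (y) on log axes for the 56 microRNA genes (circles), the 23 snoRNA genes (triangles) and the 6 imprinted genes described here (squares) of the *Dlk1*-*Dio3* domain, with a line of equal values. Most small RNA genes lie below the line with *Rtl1*, *Rian* and *Mirg*, and *Dlk1* and *Dio3* lie above it.

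*Rtl1* has no introns in its coding part, and its exons (chr12:110827404-110838540, minus strand) hold 6 microRNA genes on the opposite strand, which belong to the maternally expressed antisense transcript. The reads on their hairpins were 20 in ES cells and 20 in forebrain for *Mir431*, 43 and 40 for *Mir433*, 132 and 134 for *Mir127*, 67 and 43 for *Mir434*, 197 and 221 for *Mir432*, and 40 and 22 for *Mir136*. Counting used both strands, so the RPKM of *Rtl1* holds the reads of *Rtl1* and of its antisense transcript, which cannot be told apart in these values. The mature microRNAs are shown as they are known to target the *Rtl1* transcript opposite to them, with their seeds in capitals (RefSeq, GRCm38.p6).
mmu-miR-431-5p: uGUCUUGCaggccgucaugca
mmu-miR-431-3p: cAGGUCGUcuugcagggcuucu
mmu-miR-433-5p: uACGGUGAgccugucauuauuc
mmu-miR-433-3p: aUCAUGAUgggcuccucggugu
mmu-miR-127-5p: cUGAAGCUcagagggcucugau
mmu-miR-127-3p: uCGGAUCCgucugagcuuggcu
mmu-miR-434-5p: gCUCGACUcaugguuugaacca
mmu-miR-434-3p: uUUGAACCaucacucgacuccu
mmu-miR-432: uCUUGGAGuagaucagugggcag
mmu-miR-136-5p: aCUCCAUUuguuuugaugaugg
mmu-miR-136-3p: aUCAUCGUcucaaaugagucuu
RefSeq sequences were matched for 13 hairpins that overlap exons of the imprinted genes, and no seed was shared among their 24 mature microRNAs.

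Within exons of *Mirg*, the hairpin of *Mir377* had 77 reads in ES cells (RPKM 1382) and 23 in forebrain (RPKM 277), and that of *Mir410* had 30 (RPKM 452) and 37 (RPKM 374). *Mir412* and *Mir369*, at the edges of *Mirg* exons, had the largest differences toward ES cells among the microRNA genes of this domain. They had 30 and 26 reads in ES cells and 2 reads each in forebrain. In the *Meg3* exons *Mir1906-1* had 25 reads in ES cells and 81 in forebrain and *Mir770* had 5 and 14, higher in forebrain like *Meg3* itself. *Gm17639*, a non-coding gene on the opposite strand that lies fully within *Meg3* exons, had an RPKM of 101.4 and 148.1. *Dio3os*, the antisense RNA next to *Dio3*, was listed at 0 in ES cells and had 10.9 (17 reads) in forebrain.

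The *Kcnq1* domain (chr7:150152727-150688446) contained 3 of the 5 imprinted genes that were at least 2-fold higher in ES cells, next to a gene with the opposite difference. *Phlda2*, a maternally expressed gene that restrains growth of the placenta (ENSMUSG00000010760, chr7:150687450-150688446, minus strand), had 864 in ES cells (536 reads) and 5.41 in forebrain (5 reads), which is 160-fold higher in ES cells (interval 68.0 to 494). *Slc22a18*, an organic cation transporter gene directly next to it, had 61.1 in ES cells (86 reads, interval 48.9 to 75.5) and was listed at 0 in forebrain. Against a floor of 3 reads in forebrain, its bound was 42.7-fold higher in ES cells. This bound leaves out the counting error of the 86 reads and is not an interval like those of the other genes. *Ascl2*, a transcription factor gene needed in the trophoblast, had 72.7 (96 reads) and 6.61 (13 reads), 11-fold higher in ES cells (interval 6.14 to 21.4). Both *Phlda2* and *Ascl2* are best known from extraembryonic tissue. Of 6 trophoblast markers 5 were listed, with 3 higher in forebrain and 2 in ES cells and a summed RPKM of 372 in ES cells and 239 in forebrain. *Cdx2* made up most of it in ES cells (272, and listed at 0 in forebrain) and *Eomes* in forebrain (90.1 and 234), while *Elf5*, *Gcm1* and *Hand1* were at or under 7.2 in both. Their part was not tested.

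*Cdkn1c*, which codes for the cell cycle inhibitor p57 and lies on the other side of *Slc22a18*, differed in the other direction. It had 325 in ES cells (514 reads) and 4130.2 in forebrain (9737 reads), 12.7-fold higher (interval 11.6 to 13.9). The ratio of *Phlda2* to *Cdkn1c* was 2.66 in ES cells, and that of *Cdkn1c* to *Phlda2* was 763 in forebrain. *Kcnq1*, a potassium channel gene, was low in both samples with 7.51 (19 reads) and 25.1 (94 reads), 3.34-fold higher in forebrain (interval 2.01 to 5.76). Of the 11 listed genes of the domain, 2 were at least 2-fold higher in forebrain, compared to 25.8% of all listed genes. In ES cells 5 were, compared to 23.3% of all listed genes, the further ones being *Gm15024* (87.7 and 21.0) and *Cd81*. *Cd81*, a tetraspanin gene, had 6978 in ES cells, the highest level of the domain there, and 3089.8 in forebrain, where *Cdkn1c* was higher.

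*Mest* and *Copg2* ranked 3 and 5 among the imprinted genes of forebrain, and 11 and 4 among those of ES cells. *Mest*, a paternally expressed gene of mesoderm for a hydrolase of the endoplasmic reticulum (ENSMUSG00000051855, chr6:30673547-30698457), had 671 in ES cells and 11692 in forebrain, 17.4-fold higher (interval 16.7 to 18.2). *Copg2*, a coat protein gene that is transcribed towards it, had 1342 and 4735, 3.53-fold higher. The order of both genes thus differed between the samples, with a ratio of *Mest* to *Copg2* of 0.4997 in ES cells and 2.47 in forebrain. They overlap over 904 bases at their 3' ends, which is 23.0% of the exons of *Mest* and 20.2% of those of *Copg2*, and reads in this overlap count for both. *Mir335*, in an intron of *Mest*, had 49.8 (4 reads) and 1036 (124 reads).

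The *Peg10*/*Sgce* domain (chr6:4624350-5383022) held 4 of the imprinted genes, all of them higher in forebrain. *Peg10*, a retrotransposon-derived gene needed in the placenta, and *Sgce*, which codes for epsilon-sarcoglycan, are both paternally expressed and start next to each other on opposite strands. *Peg10* had 739 in ES cells and 1504 in forebrain, 2.04-fold higher. *Sgce* had 42.3 (107 reads) and 461 (1738 reads), 10.9-fold higher (interval 8.96 to 13.4), so that the ratio of *Peg10* to *Sgce* was 17.5 in ES cells and 3.26 in forebrain. Among the maternally expressed genes of the domain, *Ppp1r9a*, which codes for the actin-binding protein neurabin, had 116 and 250.3, a 2.16-fold difference, and *Asb4* had 0.93 (3 reads) and 425 (2042 reads), with a ratio of 457 and an interval from 156 to 2216. *Asb4*, a gene for a subunit of a ubiquitin ligase known from the vasculature, was among the 4 lowest imprinted genes of ES cells. Of the 6 endothelial markers, 5 were also higher in forebrain, such as *Kdr* (24.99 and 601) and *Cdh5* (1.53 and 326), whereas *Pecam1*, the highest of them in ES cells, had 551 and 317, and their part was not tested.

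All 3 imprinted genes of the *Peg3* domain (chr7:6628154-6916480) were higher in forebrain. *Peg3*, a paternally expressed zinc finger gene, had 190.3 in ES cells (2075 reads) and 1568 in forebrain (25486 reads), 8.24-fold higher (interval 7.88 to 8.62). Its neighbours were much lower, with 9.36 (20 reads) and 42.4 (135 reads) for *Usp29* and 1.68 (5 reads) and 38.4 (171 reads) for the maternally expressed zinc finger gene *Zim1*. *Peg3* exceeded *Zim1* by 113-fold in ES cells and 40.9-fold in forebrain.

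*Grb10* and *Ddc* (chr11:11714104-11938686) differed in opposite directions. *Grb10* codes for an adaptor that dampens insulin and growth factor signalling, and it is known to be maternally expressed in most tissues but paternally in neurons. It had 337 in ES cells (2531 reads) and 6479 in forebrain (72481 reads), 19.2-fold higher (interval 18.47 to 19.998). *Ddc*, the enzyme that makes dopamine and serotonin from their precursors, had 196 (698 reads) and 69.0 (367 reads), 2.83-fold higher in ES cells (interval 2.49 to 3.23). *Grb10* exceeded *Ddc* by 1.72-fold in ES cells and 93.8-fold in forebrain. *SCARNA4*, between the 2 genes, had 2453 and 1848.

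The *Snrpn* domain (chr7:66484122-69565039) corresponds to the human Prader-Willi and Angelman region. Among its imprinted genes described here, *Magel2* and *Ndn* near the distal end had the largest differences. *Ndn*, a paternally expressed MAGE family gene of postmitotic neurons, had 99.03 in ES cells (134 reads) and 1851 in forebrain (3734 reads), 18.7-fold higher (interval 15.7 to 22.4). Its neighbour and relative *Magel2* had 0.26 (1 read) and 51.1 (291 reads), with a ratio of 197 and an interval from 34.8 to 7738. The third gene beside them, the ring finger gene *Mkrn3*, had 146 and 245, a 1.68-fold difference (interval 1.48 to 1.93). At the other end, *Snrpn*, a spliceosome protein gene, had 423 and 266 and was 1.59-fold higher in ES cells (interval 1.43 to 1.76), and *Ube3a*, a ubiquitin ligase gene whose paternal copy is silenced only in neurons, had 1500.4 and 1825, a 1.22-fold difference. Further, 2 snoRNA genes near *Snrpn* were well covered, *SNORD107* with 2738 and 831 and *Snord64* with 2405 and 1455. The other 8 snoRNA genes, copies of *SNORD115* and *SNORD116*, had at most 2 reads in either sample. All 13 microRNA genes of this domain had a higher RPKM in forebrain, but they held 1 read in ES cells and 21 in forebrain in total, and only 3 of them reached 3 reads.

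The *Gnas* locus (chr2:174106738-174172245) codes for the stimulatory G protein subunit and for alternative proteins from promoters with different parental bias. *Gnas* had 291 in ES cells (2668 reads) and 1553 in forebrain (21202 reads), 5.33-fold higher (interval 5.12 to 5.55). Its paternally expressed antisense RNA *Nespas* had 686 and 455, 1.51-fold higher in ES cells (interval 1.41 to 1.61), although 31.4% of its exons overlap exons of *Gnas*, whose level differed in the other direction. *AF085738*, an annotated gene that lies to 98.99% within exons of *Gnas* on the opposite strand, had 1246 and 8220.2. The 33 protein-coding genes were searched against protein-coding transcripts of other genes only. *Gnas* alone had such a match with at least 90% identity over at least 50% of its transcript, and this was *AF085738* itself. The value of *Gnas* is a sum over the transcripts of all its promoters, which were not separated.

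*H13*, a signal peptide peptidase gene, and *Mcts2*, a retrogene within its intron (chr2:152495197-152534406), differed less. *H13* had 212 in ES cells and 511 in forebrain, 2.41-fold higher, and *Mcts2* had 450 (292 reads) and 609.9 (590 reads), 1.36-fold higher (interval 1.18 to 1.57). *Gm17559*, a non-coding gene on the opposite strand that shares 760 bases with *H13* exons, had 44.4 and 61.0. *Zrsr1*, a retrogene in an intron of *Commd1* (chr11:22873215-22876498), was the imprinted gene with the smallest difference. It had 100.4 (270 reads) and 92.7 (371 reads), and 1.08-fold higher in ES cells with an interval from 0.924 to 1.27 was within counting error. Its exons share 203 bases (6.18%) with exons of *Commd1* on the opposite strand, which had 636 and 616. With the sum of values made equal between the samples, which moves the median of all genes from 0.013 to 0.26 on the log2 scale, *Zrsr1* was higher in forebrain (0.16).

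The remaining imprinted genes lie outside of these clusters. *Nnat*, a paternally expressed gene of the developing nervous system for the membrane proteolipid neuronatin (ENSMUSG00000067786, chr2:157385814-157388258), had 123 in ES cells (185 reads) and 16095 in forebrain (35939 reads), 130.3-fold higher (interval 113 to 151), and it was the second highest imprinted gene of forebrain. *AL672259.1*, an annotated microRNA gene on the opposite strand of a *Nnat* exon, had 27 and 3603 reads, which are counted for *Nnat* as well. *Plagl1*, a zinc finger gene that is known to regulate other imprinted genes (chr10:12810497-12851500), had 16.8 (100 reads) and 545 (4847 reads), 32.4-fold higher in forebrain (interval 26.7 to 40.05). Conversely, *Impact*, a regulator of translation by GCN2, was the highest imprinted gene of ES cells with 2709, and had 808 in forebrain, 3.35-fold higher in ES cells (interval 3.22 to 3.49). None of the exons of *Plagl1* and *Impact* overlap another annotated gene.

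The counts were also taken apart for genes with and without overlapping exons. Among the 26 imprinted genes without such an overlap, 16 (61.5%) were at least 2-fold higher in forebrain and 5 (19.2%) in ES cells (median difference 1.84). Among the 13 with an overlap, 7 (53.8%) and 0 were (median 1.27). Over all listed genes these shares were 25.8% and 23.3%, and the 19.2% towards ES cells is near the latter. The shares were not taken apart for all genes with and without an overlap. The counting interval of the ratio lay above 1 towards forebrain for 28 of the 39 genes and towards ES cells for 10, which include *Slc22a18* at its bound. *Zrsr1* was the single gene whose interval held 1. The share of all listed genes with such intervals was not taken, so these counts do not set the imprinted genes apart from other genes.

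The promoters were searched for TGCCGC, the hexamer known for the zinc finger protein ZFP57, which keeps methylation at imprinting control regions. It was searched on both strands (reverse complement GCGGCA) in the 250 bases before each annotated start of RefSeq (GRCm38.p6). Promoter windows were matched for 32 of the 40 imprinted genes. Those of *H19*, *Kcnq1*, *Cdkn1c*, *Rtl1*, *Sgce*, *Peg10*, *Nespas* and *Impact* were not analysed here. The hexamer was found for 6 of the 32 genes (18.8%), namely *Mcts2*, *Mest*, *Copg2*, *Zim1*, *Plagl1* and *Meg3*. This compares to 9.84% of the 27025 genes with a promoter window. A gene can have several windows, and per window the shares were 14.6% of 48 and 8.68% of 32851. The number of CG dinucleotides per window had a median of 10 for the imprinted genes and 6 for all windows. A match describes the sequence and not a bound site, and the control region of a domain often lies outside of these windows. Of the 6 genes, *Mest*, *Copg2*, *Zim1* and *Plagl1* were at least 2-fold higher in forebrain, and *Meg3* and *Mcts2* differed by less. Those of *Mest* and *Plagl1*, known for a methylated maternal allele, and of *Meg3*, known for a methylated paternal allele, are shown in the direction of transcription with matches in capitals. The *Mest* window (chr6:30737800-30738049, plus strand) holds 2 matches, the first starting 242 bases before the start, the *Plagl1* window (chr10:13090582-13090831, plus strand) 1 match at 90 bases and the *Meg3* window (chr12:109540746-109540995, plus strand) 1 match at 190 bases.
Mest: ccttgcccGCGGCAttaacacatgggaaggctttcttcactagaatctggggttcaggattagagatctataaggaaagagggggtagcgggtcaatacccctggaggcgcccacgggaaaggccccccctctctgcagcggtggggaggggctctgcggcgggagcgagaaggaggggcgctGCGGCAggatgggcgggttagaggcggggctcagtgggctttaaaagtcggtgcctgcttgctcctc
Plagl1: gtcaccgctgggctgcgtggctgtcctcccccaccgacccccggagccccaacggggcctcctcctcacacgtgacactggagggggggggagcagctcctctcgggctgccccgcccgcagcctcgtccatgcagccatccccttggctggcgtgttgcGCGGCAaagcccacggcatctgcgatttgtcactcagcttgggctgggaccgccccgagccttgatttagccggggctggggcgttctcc
Meg3: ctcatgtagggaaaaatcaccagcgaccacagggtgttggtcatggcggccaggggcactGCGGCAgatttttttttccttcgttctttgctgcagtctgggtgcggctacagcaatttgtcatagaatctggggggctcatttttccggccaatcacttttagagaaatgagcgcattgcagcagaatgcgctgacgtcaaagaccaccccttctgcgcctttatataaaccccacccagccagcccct

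A second list of 44 imprinted genes outside of the 40 was examined as well. Of these, 37 were listed, as 38 entries since *Tnfrsf22* has more than 1 identifier. At least 2-fold higher levels in forebrain were found for 15 entries (39.5%, compared to 25.8% of all genes) and in ES cells for 5 (13.2%, compared to 23.3%), with a median difference of 0.60 on the log2 scale. Towards forebrain the largest belonged to *Dcn*, a proteoglycan gene of connective tissue, with 3.15 and 172, *Gatm*, an enzyme of creatine synthesis, with 10.98 and 215, and *Peg12* with 76.0 and 1118. *Dcn* is itself a gene of mesenchyme, whose markers were higher in forebrain. They were followed by *Osbpl5* (21.6 and 233), *Nap1l5* (6.45 and 60.6), *Th*, the tyrosine hydroxylase gene (12.1 and 102), *Begain* (2.76 and 26.0), *Casd1* (183 and 1277), *Klf14* (1.23 and 14.1), *Tfpi2* (1.6 and 11.5), *Dhcr7* (145 and 543), *Pon2* (99.4 and 331) and *Atp10a* (39.96 and 85.2). Both *Slc22a3* and *Kcnk9* were listed at 0 in ES cells and under an RPKM of 10 in forebrain.

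Towards ES cells, *Sfmbt2*, a Polycomb group gene known for its role in trophoblast, had 580.1 and 28.1, a 20.6-fold difference, and *Gpr1* had 77.4 and 2.96. *Cobl*, an actin nucleator gene next to *Grb10*, had 499 and 38.8, and the amino acid transporter gene *Slc38a4* had 4642 and 1322. With *Cd81*, described above, these are all 5 genes of the list that were at least 2-fold higher in ES cells.

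**Figure D5:**
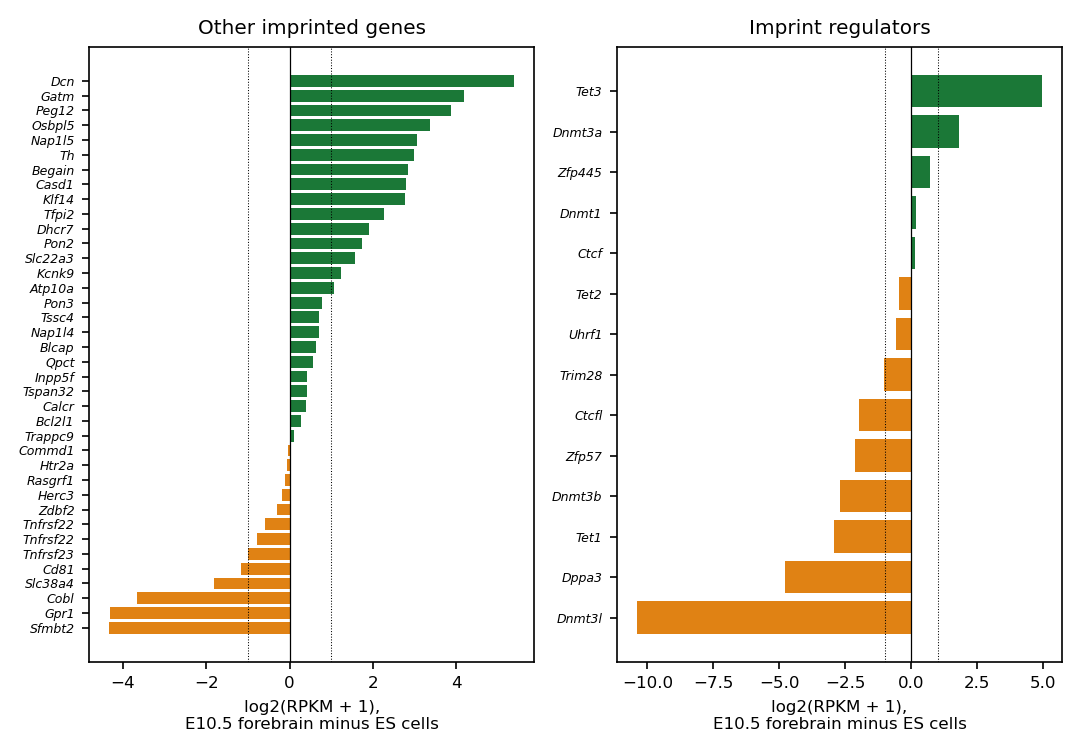
Difference on log2(RPKM + 1), forebrain minus ES cells, for the 38 entries of further imprinted genes (left) and for 14 regulators of imprints (right), with green bars for a higher value in forebrain, orange bars for a higher value in ES cells and dotted lines at 2-fold. *Dcn* (5.38) and *Sfmbt2* (-4.32) mark the ends of the left list, and *Tet3* (4.94) and *Dnmt3l* (-10.39) those of the right.

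Of the factors that set, keep or erase imprints, 9 were higher in ES cells and 5 in forebrain. Of 14 such genes, 7 (50%, compared to 23.3% of all listed genes) were at least 2-fold higher in ES cells and 2 (14.3%, compared to 25.8%) in forebrain, with a median difference of -0.81 on the log2 scale. *Dnmt3l*, the cofactor of de novo methylation in germ cells, had 6647 in ES cells and 3.97 in forebrain, a 1674-fold difference, and the de novo methyltransferase gene *Dnmt3b* had 1515 and 234. *Dppa3*, which protects the maternal genome from demethylation, had 31.6 (23 reads) and 0.18 (under 1 read). The other de novo methyltransferase gene, *Dnmt3a*, had the opposite difference with 183 and 643.

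Of the genes that maintain imprints in the early embryo, *Zfp57* had 3037 and 698, 4.35-fold higher in ES cells, its partner *Trim28* had 26609 and 12853, and *Zfp445* had 1054 and 1731. *Dnmt1* and *Uhrf1*, which copy methylation at replication, differed by less than 2-fold, with 3272 and 3672 and with 5837 and 3937. The same was seen for *Ctcf*, the insulator protein that binds the *H19*/*Igf2* control region (1402 and 1545). Its germ cell relative *Ctcfl* was low in both (6.26 and 0.83). Among the genes that oxidize methylated cytosine, *Tet1* had 1079 and 139.8, *Tet2* had 339 and 247, and *Tet3* had 7.05 and 245, so that the most abundant of them was *Tet1* in ES cells and *Tet2* or *Tet3* in forebrain.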

How the data were processed

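RNA-seq of 1 ES cell sample and 1 E10.5 forebrain sample was used. Per the labels, rRNA-depleted total RNA was sequenced as stranded single-end libraries, with 100 bp reads in the labels and 50 bp in the methods. NCBIM37 (mm9) served the authors as the genome, in the HTSstation pipeline (Bowtie 0.12.7 in the submitters' processing notes) and they deposited RPKM values per gene, whose scaling between the samples is not given in the sources used here. All 29311 listed genes had the coordinates of the same identifier in GENCODE vM1 (37310 genes).

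Reads per gene were inferred from the value of 1 read on 1 kb of exon, 1.22 (ES cells) or 0.819 (forebrain) on the deposited RPKM scale. Of the low genes with up to 2500 bp of exon, 58.9% of 5503 and 60.3% of 5337 were within 0.05 of a whole read (10% by chance), and 10.6% and 10.8% at a split read. Differences were taken on log2(RPKM + 1), with a 2-fold limit and no test, since there is 1 sample per cell type. All 40 imprinted genes are named. Genes of the other lists are named if past 2-fold and at 10 RPKM or more in a sample, and regulators and overlapping genes in any case. The imprinted genes and all lists were chosen with earlier results of these data known. Primitive endoderm markers (5 of 6 higher in E10.5 forebrain) summed to 17.5 and 1903, of which *Pdgfra*, also a mesenchyme gene, made up 1795.6. Near-identical copies were searched among protein-coding transcripts with blastn 2.17.0. Tools were matplotlib 3.10.9, pandas 2.3.3, scipy 1.17.1 and numpy 2.4.6 in Python 3.11.15. Alternatives were other pseudocounts, scalings, limits and filters.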

Additional observations from a re-analysis of the deposited data

How the results depend on the processing

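No paired analysis was possible because there is 1 sample per cell type, and for the same reason no sample could be left out. Of 63 alternative values for the counts and medians, 60 stayed within 1.5-fold of the reported value and none changed direction. With a limit of 4-fold 3 imprinted genes were higher in ES cells and with a limit of 1.5-fold 10 were, in place of 5, and 3 of the further imprinted genes were at 4-fold, also in place of 5. The number of imprinted genes higher in E10.5 forebrain (23) was 16 without overlapping exons, 18 at 4-fold, 22 with upper quartile scaling and 25 at 1.5-fold or with scaling by the sum. Their median difference lay between 1.27 and 1.87. For single genes, 13 of 195 alternatives moved the ratio by over 1.5-fold, all of them pseudocounts of 0.1 or 5 on genes with an RPKM below 10 in 1 sample, and 1 changed direction, *Zrsr1* from -0.11 to 0.16 on the log2 scale when scaled by the sum. That scaling also put *Meg3* (1.01) and *Mkrn3* (1.020) past 2-fold, and upper quartile scaling put *Peg10* (0.94) under it. Depth limits *Dlk1*, *Airn*, *Magel2* and *Asb4* in ES cells, where 1 to 3 reads were counted.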
